A study of Mus musculus with 4 samples.

Results

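Macrophages lacking CD163 were compared with wild-type macrophages after both had received lipopolysaccharide (LPS), with 1 array a side. Resident peritoneal macrophages, the phagocytes that float in the peritoneal fluid, came from mice of C57BL/6 background and were kept in RPMI medium with serum for 2 days. Cultures labelled wild type or CD163-deficient then received LPS, an outer membrane component of Gram-negative bacteria, for 1 day at 100 ng/mL, or none. Each of the 4 groups had 1 one-colour array, and all 4 arrays lay on 1 slide. The age and sex of the mice, the number of mice behind a culture and the way Cd163 was disrupted are not given in the sources used here. Levels are log2 processed intensities minus the 75th percentile of the same array, which places that percentile at 0. A difference is the level in CD163-deficient cells minus the level in wild type, and 1 on this scale is 2-fold. The comparison took in 13377 of 30222 genes and transcripts on the array, those with a level of -2 or more on both LPS arrays, with the brightest probe standing for a gene.

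With no second culture in any group, no difference below has a replicate check, and words such as higher and lower refer to these single arrays. Within an array, probes printed 10 times had a median standard deviation between spots of 0.08 to 0.10 among those at that level. Among 2510 genes with several probes at that level, the genotype difference had a median standard deviation of 0.08 between probes of a gene and a 90th percentile of 0.20. Both values cover spread within an array, not spread between cultures. The level rule mattered for the noise, since 14.3% of genes with a lower level under -4 were 2-fold apart, against 1.1% between -4 and -2 and 0.25% between -2 and 0. The 3 genes just inside the rule by their lower array were Vmn2r57 (difference 0.08), Sbk1 (-0.12) and Cnrip1 (-0.08). The 3 just outside were Spats2 (-0.12), Zfp14 (0.03) and Ptx3 (0.05). The rule also leaves out a gene that is bright on 1 side only. F13a1, the clotting factor XIII gene of macrophages and platelets, is such a case, with -1.34 in wild type against -2.54 in CD163-deficient cells.

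Cd163 itself was not among the genes compared. Its probe, on chromosome 6 from 124270436 to 124270495 on the mm9 assembly, had levels of -5.37 without LPS and -4.94 with it on the wild-type arrays, and of -5.92 and -5.41 on the CD163-deficient arrays. All 4 levels lay in the range where differences of single arrays are noisiest, and the difference was -0.47 with LPS (0.0156 with normexp background correction) and -0.55 without it. Which part of the gene is missing is not stated, and a probe outside it would check nothing about the genotype. General macrophage genes were present on every array. Csf1r, the receptor for the growth factor that macrophages live on, had levels of 7.45 and 7.68 in wild type and CD163-deficient cells with LPS, and Adgre1, which encodes the macrophage antigen F4/80, had 7.11 and 7.25. All 20 genes of a macrophage identity list met the level rule, with a median difference of 0.09 (14 higher, 6 lower). Of 25 markers of large peritoneal macrophages, the main resident type, 21 met it, and none of the 25 was at background on both LPS arrays.

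CD163 is a scavenger receptor of macrophages that takes up complexes of haemoglobin and haptoglobin. LPS acts through Toll-like receptor 4, and its early signals turn on cytokine genes through NF-kB and, through secreted interferon, a second wave of genes that need STAT and IRF factors. Interferon gamma acts on the same macrophages through its own receptor, inducing large GTPases that attack the vacuoles of microbes, antigen presentation and Nos2, the inducible nitric oxide synthase. Arginase 1 competes with that enzyme for arginine and is a usual marker of the opposite, repair-like state of macrophages.

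All listed guanylate-binding protein and immunity-related GTPase genes at the level rule were on the higher side. Interferon induces both families through short elements close to the start of transcription. The windows of 250 bases upstream of the annotated start are therefore shown for 5 genes, from RefSeq on GRCm38.p6, each read 5' to 3' on the strand of its gene. Capitals mark matches on either strand to an interferon-stimulated response element (GAAA, any 2 bases, GAAA), a gamma-activated site (TTC, any 3 bases, GAA) or a kB site (GGGA, any 2 bases, TTCC). Gbp5 (chr3:142496684-142496933, plus strand) holds all 3 kinds. Igtp (chr11:58199306-58199555, plus strand) and Irgm2 (chr11:58214727-58214976, plus strand) hold the same arrangement, a gamma-activated site followed closely by a response element. Cxcl10 (chr5:92348890-92349139, minus strand) holds a response element and a kB site, and Ifng (chr10:118440796-118441045, plus strand), the gene of interferon gamma itself, holds a gamma-activated site at the far end of the window.
Gbp5: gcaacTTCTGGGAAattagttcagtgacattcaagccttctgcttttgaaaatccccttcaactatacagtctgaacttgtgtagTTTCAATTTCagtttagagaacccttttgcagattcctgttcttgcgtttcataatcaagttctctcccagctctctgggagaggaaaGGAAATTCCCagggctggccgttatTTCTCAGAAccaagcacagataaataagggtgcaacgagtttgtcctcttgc
Igtp: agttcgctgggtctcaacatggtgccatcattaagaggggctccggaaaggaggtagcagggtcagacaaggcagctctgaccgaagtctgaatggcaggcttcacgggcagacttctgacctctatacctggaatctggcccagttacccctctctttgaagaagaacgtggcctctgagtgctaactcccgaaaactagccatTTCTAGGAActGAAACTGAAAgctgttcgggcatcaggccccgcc
Irgm2: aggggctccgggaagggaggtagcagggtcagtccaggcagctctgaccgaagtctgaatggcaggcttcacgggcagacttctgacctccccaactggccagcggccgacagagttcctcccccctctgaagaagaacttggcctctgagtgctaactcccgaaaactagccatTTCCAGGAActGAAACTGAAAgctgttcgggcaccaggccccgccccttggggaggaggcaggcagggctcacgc
Cxcl10: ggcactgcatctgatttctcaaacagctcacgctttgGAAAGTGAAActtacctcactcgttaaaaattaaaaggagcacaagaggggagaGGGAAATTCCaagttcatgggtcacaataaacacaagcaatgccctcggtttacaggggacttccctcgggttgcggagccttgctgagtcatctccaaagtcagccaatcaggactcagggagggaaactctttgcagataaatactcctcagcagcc
Ifng: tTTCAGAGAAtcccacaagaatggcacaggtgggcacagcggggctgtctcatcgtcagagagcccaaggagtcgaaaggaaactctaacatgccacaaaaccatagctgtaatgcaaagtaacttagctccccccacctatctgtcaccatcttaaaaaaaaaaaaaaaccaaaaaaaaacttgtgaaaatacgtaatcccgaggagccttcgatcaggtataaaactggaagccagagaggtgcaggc

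Counted from the annotated start, the response elements begin at -165 in Gbp5, -34 in Igtp, -64 in Irgm2 and -213 in Cxcl10. The gamma-activated sites begin at -45 in Igtp and -75 in Irgm2, and at -245 and -52 in Gbp5. Both GTPase families together had a window in the RefSeq table for 10 of 17 genes, 11 windows in all. Of these, 90.9% held the response element and 63.6% the gamma-activated site, against 2.98% and 7.02% of 32851 windows of the whole table. The 86 genes at least 1.5-fold higher, which include 7 of these GTPase genes, had 78 windows for 59 matched genes. There 11.5% held the response element, 20.5% the gamma-activated site and 3.85% the kB site. Among 173 windows of the 186 genes at least 1.5-fold lower the shares were 1.73%, 5.2% and 1.73%, and among 11082 windows of the genes compared they were 2.86%, 6.03% and 1.32%. Of 6 windows of genes at least 2-fold higher, 2 held the gamma-activated site and 0 the response element or the kB site. No windows of Cxcl9 or Tnf held a match, and neither did the 13 windows of genes at least 2-fold lower. A match is a run of letters and not a measured binding site, and the absence of one says only that these letters are not in the window.

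Most genes differed little between the genotypes with LPS. The median difference was 0.03, the standard deviation across genes was 0.21, and the central 90% lay between -0.33 and 0.32. Of the 13377 genes, 9 were higher by 2-fold or more in CD163-deficient cells (0.0673%) and 14 were lower by as much (0.105%). At 1.5-fold the counts were 86 higher (0.643%) and 186 lower (1.39%), and counted by sign alone 59.1% were higher and 40.9% lower. The lower side was thus the longer one at both sizes under this level rule, whereas with no level rule 206 genes were 2-fold higher and 157 lower. Counts by sign in the gene lists below are to be read beside the 59.1% and 40.9% of all genes. The control lists of housekeeping and ribosomal protein genes had 73.3% and 72.7% higher.

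**Figure D1:**
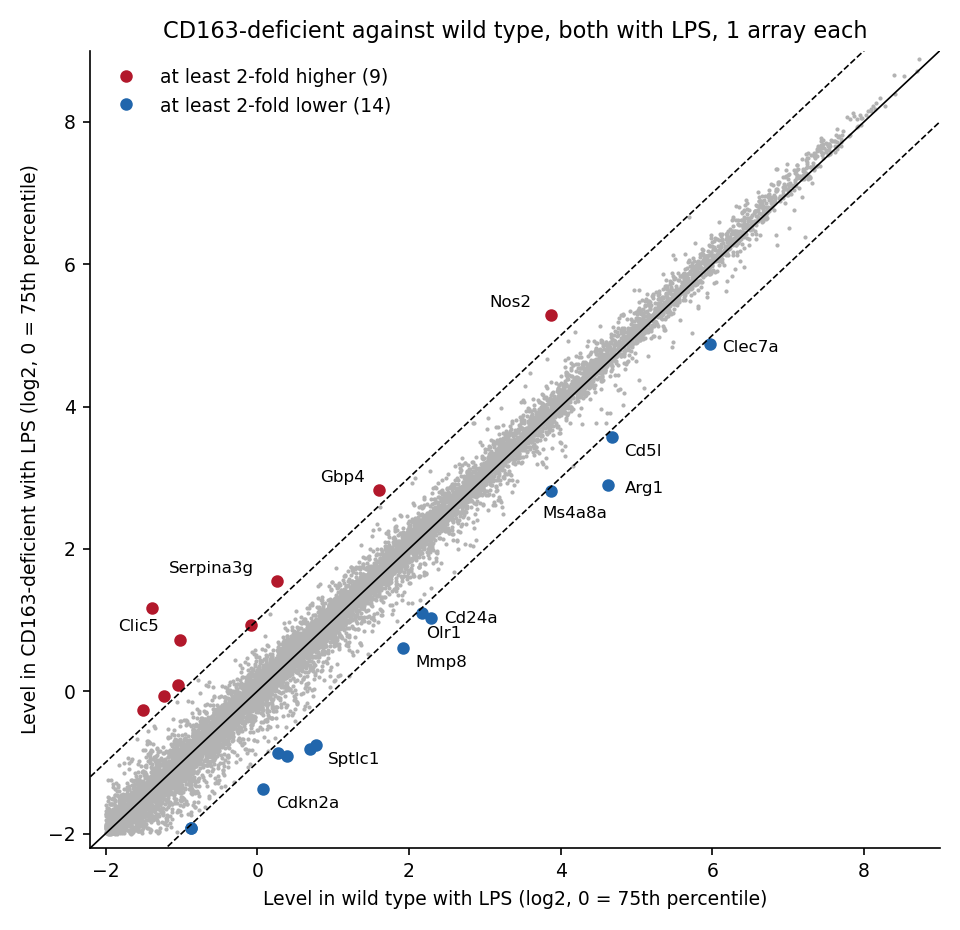
Level of each of the 13377 genes in wild type with LPS (horizontal axis) and in CD163-deficient cells with LPS (vertical axis), 1 array each, on a log2 scale where 0 is the 75th percentile of the array. The solid line marks equal levels and the dashed lines 2-fold, with 9 genes above the upper line in red and 14 below the lower line in blue. Nos2 and Arg1 stand on opposite sides of the line of equal levels.

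Nos2 and Arg1, whose enzymes compete for arginine, were both more than 2-fold apart and went in opposite directions. Nos2 had levels of -1.69 and 3.88 in wild type without and with LPS, and of -1.40 and 5.29 in CD163-deficient cells. It was low on both arrays without LPS and 2.65-fold higher in the CD163-deficient culture with LPS (1.41). Arg1 had levels of 1.38 and 4.62 in wild type without and with LPS, and of -0.57 and 2.90 in CD163-deficient cells. The CD163-deficient culture was the lower one in both states, 3.30-fold with LPS (-1.72). The Arg1 level of CD163-deficient cells with LPS still lay above that of wild type without LPS. Among the 20 genes of arginine, nitric oxide and polyamine metabolism at the level rule these were the only genes 1.5-fold apart, with 11 higher, 9 lower and a median of 0.08. Ass1, which rebuilds arginine from citrulline, was at 5.99 in wild type against 6.37 in CD163-deficient cells with LPS (0.38). The arginine transporter gene Slc7a2 differed by 0.33, and Gch1, the first enzyme of tetrahydrobiopterin synthesis, by 0.24 (but -0.15 on its other probe). On the other side were Ddah2, which breaks down an inhibitor of nitric oxide synthases (-0.41), and Arg2, the mitochondrial arginase (-0.30).

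The other genes at least 2-fold higher in CD163-deficient cells with LPS were Clic5, Serpina3g, Postn, Gbp4, Ifng and Il4i1, with Gm4841, a predicted gene, and 1 probe without a gene name. Ifng had levels of -4.49 and -1.05 in wild type without and with LPS, and of -5.03 and 0.09 in CD163-deficient cells. It was higher with LPS in both genotypes, and 2.20-fold higher in CD163-deficient cells there (1.14), while without LPS the difference was -0.55 at levels where arrays are noisy. Gbp4, a guanylate-binding protein gene, showed the same shape, with -4.42 and 1.60 in wild type and -4.06 and 2.83 in CD163-deficient cells (1.23). Serpina3g, a serine protease inhibitor gene of activated immune cells, had -1.78 and 0.26 in wild type and -1.83 and 1.54 in CD163-deficient cells (1.28). The Serpina3g levels without LPS were within 0.05 of each other. Il4i1, a secreted amino acid oxidase, had -1.90 and -0.08 in wild type and -1.85 and 0.93 in CD163-deficient cells (1.01), so that it too differed with LPS alone.

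Clic5, an intracellular chloride channel family gene, had -3.39 and -1.01 in wild type without and with LPS, and -3.08 and 0.72 in CD163-deficient cells (1.74). It was higher with LPS in both genotypes, and on all arrays but the CD163-deficient one with LPS it lay below the 75th percentile. Gm4841 had -6.31 and -1.22 in wild type and -5.63 and -0.07 in CD163-deficient cells (1.15). Postn, which encodes the matrix protein periostin, had another pattern. It had -0.77 and -1.51 in wild type and 0.37 and -0.27 in CD163-deficient cells, higher in the CD163-deficient culture in both states (1.24 with LPS, 1.15 without it) and lower with LPS in both genotypes. The probe without a gene name had 0.19, 0.35 and 1.17 on 3 arrays and -1.39 in wild type with LPS, so its difference of 2.56 goes with 1 low array.

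**Figure D2:**
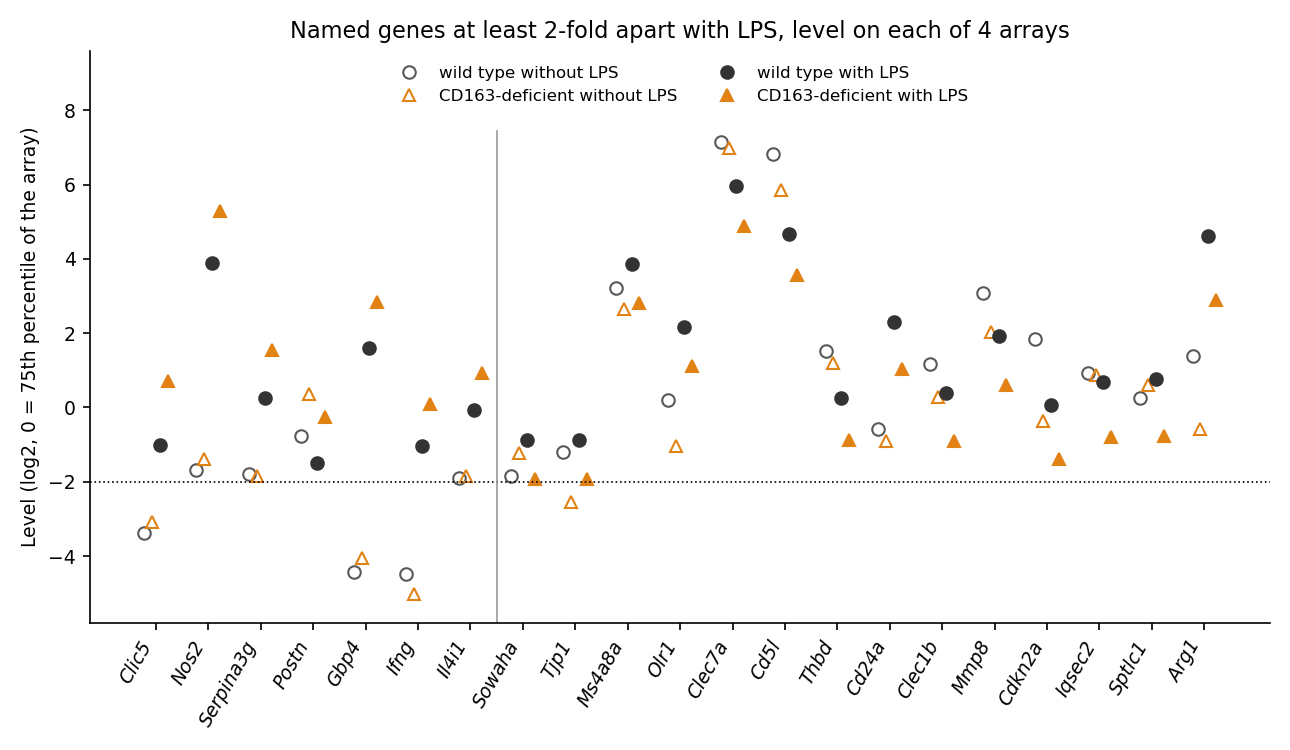
Level on each of the 4 arrays (log2, 0 = 75th percentile of the array) for the 7 named genes at least 2-fold higher (left of the grey line) and the 14 at least 2-fold lower (right) in CD163-deficient cells with LPS. Circles are wild type, triangles CD163-deficient, open symbols without LPS and filled symbols with LPS, and the dotted line is the level of -2. Serpina3g and Il4i1 are apart in the filled symbols and nearly touch in the open ones, whereas Arg1, Cdkn2a, Mmp8, Olr1 and Postn are apart in both.

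Just under 2-fold stood genes of interferon and NF-kB signalling. Cxcl10, a chemokine that draws activated T cells, had levels of -1.84 and 5.70 in wild type without and with LPS, and of -1.96 and 6.67 in CD163-deficient cells (0.97, and 1.16 on its other probe). Cxcl9, its close relative, had 1.62 in wild type against 2.59 in CD163-deficient cells with LPS (0.97, and 1.14 on its other probe). Both chemokine genes were past 2-fold on the second probe and just short of it on the brighter one. Dusp2, a phosphatase that switches off MAP kinases, had -0.78 and 0.16 (0.94), Cd69, an early activation marker, 0.17 and 1.08 (0.92), and Cst7, the cystatin F gene, 2.08 and 3.00 (0.91). Cd40, the receptor for T-cell help, had 0.34 and 2.86 in wild type without and with LPS, and 0.41 and 3.77 in CD163-deficient cells (0.91). Tnf, measured by a probe printed 10 times, had 3.82 in wild type against 4.67 in CD163-deficient cells with LPS (0.86). Further genes of this size were Calhm6, a channel gene of activated macrophages (0.93), Tnfsf10, which encodes the death ligand TRAIL (0.91), Serpina3f (0.88), Batf2, a transcription factor downstream of interferon (0.77), Aqp2 (0.87) and Zfp800 (0.83, and 0.80 on its other probe).

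Every listed guanylate-binding protein gene and immunity-related GTPase gene at the level rule was higher in CD163-deficient cells with LPS. Both families are interferon-inducible GTPases that gather on the membranes around intracellular microbes. Of 11 guanylate-binding protein genes on the array 10 met the rule, all 10 higher, with a median of 0.49 where all genes had 0.03. Gbp5 had levels of -0.41 and 3.60 in wild type without and with LPS, and of -0.24 and 4.47 in CD163-deficient cells (0.87, but 0.18 on its other probe). Gbp2 had 2.05 and 6.45 in wild type without and with LPS, and 2.64 and 6.90 in CD163-deficient cells (0.45, and 0.59 without LPS). Gbp11 differed by 0.77, Gbp9 by 0.55 and Gbp10 by 0.32. The gene left out, Gbp2b, had -2.16 and -1.78 (0.38).

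Of 11 listed immunity-related GTPase genes 7 were found on the array, and all 7 met the rule and were higher, with a median of 0.59. Igtp, measured by a probe printed 10 times, had 0.80 and 4.19 in wild type without and with LPS, and 1.09 and 5.05 in CD163-deficient cells (0.86). Tgtp2 had 5.48 and 6.13 with LPS (0.65), Irgm2 3.47 and 4.06 (0.59), Iigp1 1.89 and 2.48 (0.59) and Irgm1, a regulator of the others, 4.28 and 4.60 (0.32). The members of these families are near-identical in part, as with Tgtp1 and Tgtp2, so probes may read more than their own gene and the differences are not independent. Without LPS 6 of 6 immunity-related GTPase genes (median 0.26) and 7 of 8 guanylate-binding protein genes (median 0.31) at the level rule were also higher in CD163-deficient cells, in a comparison where 35.8% of all genes were higher.

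The list of the interferon gamma axis covers the cytokine, its inducers and its signalling chain, and 18 of its 20 genes at the level rule were higher (median 0.36). The cytokines that induce interferon gamma were on the higher side with LPS. Il12b, the shared subunit of interleukins 12 and 23, had -4.49 and 2.70 in wild type without and with LPS, and -4.43 and 3.28 in CD163-deficient cells (0.58). Il12a differed by 0.48, Il27 by 0.49, Il18 by 0.20 and Il15, which sustains natural killer cells, by 0.76 with LPS and 0.71 without it. Downstream, Irf1 had 5.04 in wild type against 5.63 in CD163-deficient cells with LPS (0.59). Socs1, the feedback inhibitor of this pathway, had 2.75 and 3.00 (0.25). The receptor and its kinase were nearly level, with Ifngr2 at 0.05 and Jak1 at -0.01, and the interleukin 12 receptor gene Il12rb1 was at -0.16. Without LPS 6 of 16 genes of the axis were higher (median -0.05), beside 35.8% of all genes (median -0.10).

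Cells that make interferon gamma in the peritoneum are natural killer and T cells, and their markers were measured beside it. Of 20 natural killer cell markers 5 met the level rule, all slightly higher, with differences from 0.07 (Nkg7) to 0.17 (Klra9). The activating receptor genes Ncr1 and Klrc2 were not well above background on either LPS array. The summed linear level of the list, in units of the 75th percentile, was 6.80 and 6.25 in wild type without and with LPS, and 6.62 and 6.73 in CD163-deficient cells. The T cell list had 6 of 17 markers at the rule and sums of 7.04 in wild type against 7.01 in CD163-deficient cells with LPS, with Cd3g and Tcf7 not well above background. The part of these cells in the Ifng difference was not tested, and in RNA from a whole culture fewer cells of a type and less RNA per cell cannot be told apart.

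Genes induced by type I interferon were higher as well, by less. Of 40 antiviral genes on the array 38 met the level rule, 36 higher and 2 lower, with a median of 0.29. Isg20, an exonuclease that degrades viral RNA, had -0.16 and 4.10 in wild type without and with LPS, and 0.01 and 4.93 in CD163-deficient cells (0.83, and 0.78 on its other probe). Mx1, a GTPase that blocks influenza virus, had 3.53 and 4.29 with LPS (0.76). Rsad2, which encodes viperin, differed by 0.57, Oasl1 by 0.50, Mx2 by 0.49 and Ifit2 by 0.46. At the other end Dhx58, a sensor of viral RNA, had 3.28 and 3.25, and Ifit1bl1 0.41 and 0.30. On the arrays without LPS 14 of 30 genes were higher, with a median of -0.04, beside 35.8% of all genes and a median of -0.10. STAT, JAK and IRF factors had 15 of 18 higher (median 0.32), with Irf5 at 0.54, Tyk2 at 0.48, Irf8 at 0.39 and Irf7 at 0.35, while Stat5a, Stat5b and Jak1 lay between -0.04 and -0.01. The Schlafen family, also interferon-inducible, was divided, with 4 higher and 4 lower (median 0.05).

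Antigen presentation followed the same direction. For class I, 24 of 25 genes were higher (median 0.27), led by genes of peptide supply. Tap1, a subunit of the peptide transporter, had -0.57 and 2.06 in wild type without and with LPS, and -0.25 and 2.64 in CD163-deficient cells (0.58). Psmb10 (0.41) and Psmb9 (0.36), subunits of the immunoproteasome, and Nlrc5, the activator of class I genes (0.39), were further examples, whereas H2-K1, a classical class I gene, was at 8.09 and 8.18. The 1 gene below 0 was Pdia3, of the loading complex (-0.18). For class II, 9 of 12 genes were higher (75%, beside 59.1% of all genes, median 0.27). H2-Aa, a chain of the I-A molecule, had 2.95 and 2.28 in wild type without and with LPS, and 3.23 and 3.09 in CD163-deficient cells (0.81), so that the wild-type array with LPS was the lowest of the 4. Cd74, the invariant chain, had 5.21 and 5.58 (0.37) and H2-Eb1 4.82 and 5.29 (0.48), while H2-Ab1, the partner chain of H2-Aa, had 6.73 and 6.98 (0.24). The class II transactivator gene Ciita was below the level rule, with -2.69 in wild type against -2.51 in CD163-deficient cells.

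Molecules that T cells read on macrophages lay on both sides. Of 14 costimulatory and checkpoint genes 8 were higher and 6 lower (median 0.09). Cd40 and the adhesion gene Icam1, with 1.36 in wild type against 2.05 in CD163-deficient cells with LPS (0.69), were on the higher side, and Cd274, which encodes PD-L1, had 5.16 and 5.48 (0.32). Cd80 and Cd86, the ligands of CD28, were at -0.02 and 0.11. The inhibitory receptor genes Vsig4 and Cd200r1 were on the lower side. Vsig4, a complement receptor of resident macrophages that restrains T cells, had 5.75 and 2.81 in wild type without and with LPS, and 5.06 and 2.05 in CD163-deficient cells (-0.75), and Cd200r1 had 0.84 and 0.28 with LPS (-0.55).

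**Figure D3:**
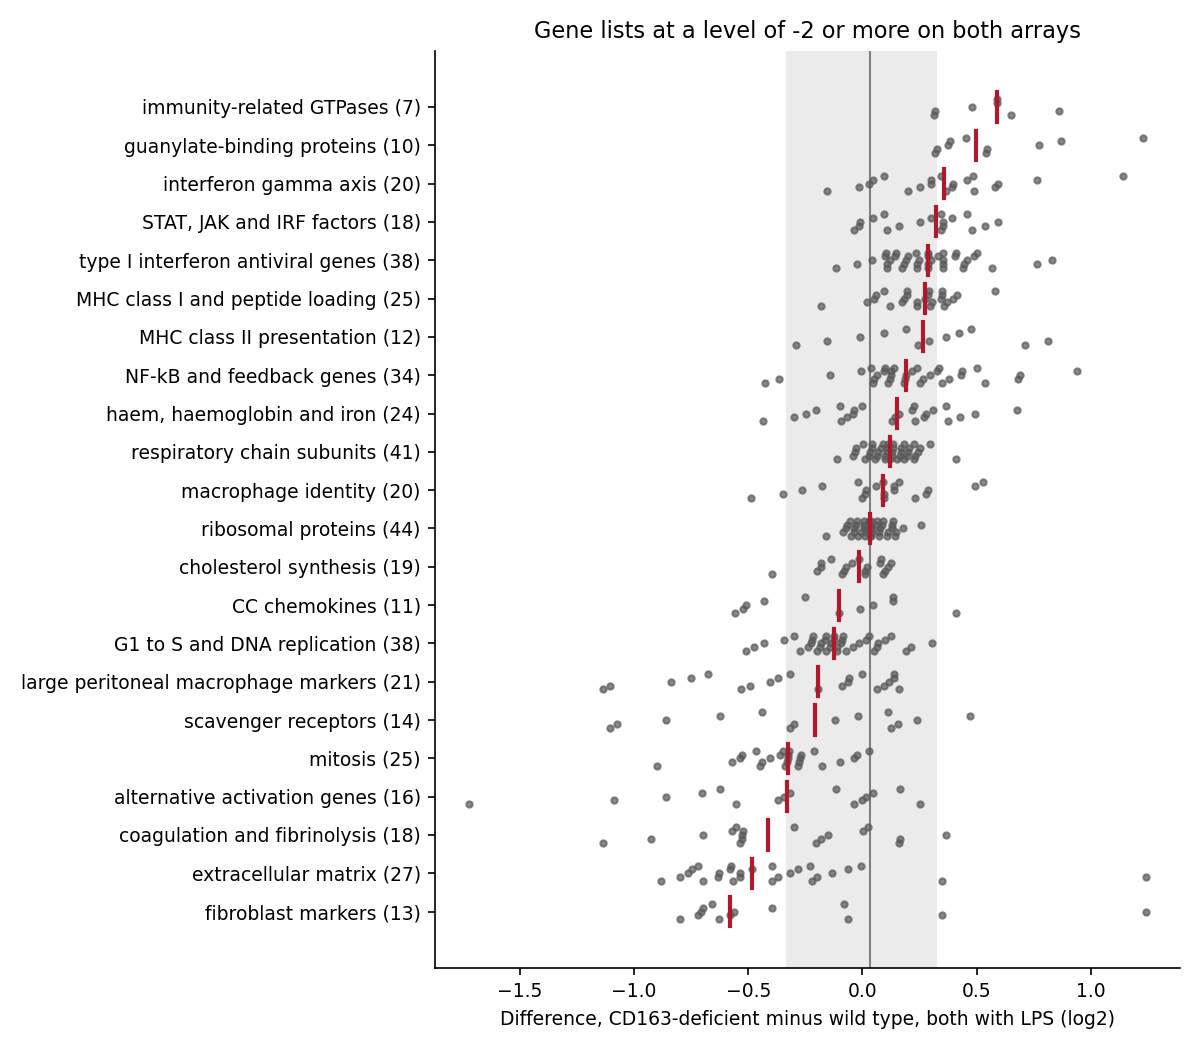
Difference between CD163-deficient and wild-type cells, both with LPS (log2, horizontal axis), for the genes at the level rule in 22 gene lists, whose number of genes is given in parentheses. Points are genes, red bars list medians, the grey line the median of all 13377 genes (0.03) and the grey band their central 90% (-0.33 to 0.32). The GTPase lists lie wholly to the right of the grey line, and most fibroblast, extracellular matrix and mitosis genes lie to the left of it.

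Cytokine genes as a whole did not lean one way, with 13 of 25 higher and 12 lower (median 0.08). Tnf, Il12b, Il27, Il15 and Ifng were on the higher side, and the members furthest down follow. Csf1, the macrophage growth factor, had 2.39 in wild type against 1.72 in CD163-deficient cells with LPS (-0.67). Spp1, which encodes osteopontin, differed by -0.63, the epidermal growth factor family genes Hbegf and Ereg by -0.55 and -0.39, Tgfb3 by -0.46 and Vegfa by -0.36. Il1a was nearly level, at 3.74 and 3.58.

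Chemokine genes were divided. Among 12 CXC chemokine genes 6 were higher and 6 lower (median -0.04). Cxcl9 and Cxcl10 were the only genes at 1.5-fold on the higher side, while the neutrophil chemokine genes Cxcl3 (4.65 in wild type against 3.91 in CD163-deficient cells with LPS, -0.74) and Cxcl5 (-0.68) were on the lower side. Cxcl1 and Cxcl2, also neutrophil chemokines, were at -0.12 and 0.04. Pf4, platelet factor 4, which resident macrophages also express, had 6.29 and 7.22 in wild type without and with LPS, and 5.21 and 6.38 in CD163-deficient cells (-0.84). Of 11 CC chemokine genes 7 were lower (median -0.10), with Ccl6 at -0.56, the monocyte chemokine genes Ccl7 (-0.52) and Ccl2 (6.19 and 5.76, -0.43), and Ccl9 at -0.51, while Ccl5 had 8.41 and 8.40. The list of chemokine and peptide receptors had 8 of 9 higher (median 0.22), with Cx3cr1, the fractalkine receptor, at -1.71 in wild type against -0.94 in CD163-deficient cells with LPS (0.76).

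NF-kB and feedback genes were mostly higher by small amounts, 30 of 34 (88.2%, beside 59.1% of all genes, median 0.19). Besides Dusp2 and Icam1 the larger differences were of Tnip3 (0.68), Cflar, a brake on cell death (0.54), and Nfkbie, an inhibitor of NF-kB (0.50). Traf2 and Tnfaip2 were both at 0.43. The other probes of Cflar were divided, at 0.40, 0.08 and -0.12. Nfkb1 and Relb, subunits of NF-kB, were at 0.05 and 0.04. Of 19 Toll-like receptor and adaptor genes 11 were higher and 8 lower (median 0.04). Tlr4, the LPS receptor, had 0.64 in wild type against 0.38 in CD163-deficient cells with LPS (-0.26), but the mean over its probes turned the direction (1.84). Its co-receptor Cd14 had 5.89 and 6.03 (0.14). Tlr1 had 2.43 and 2.96 (0.53) and Tlr2 4.66 and 4.43 (-0.23).

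On the lower side, the genes at least 2-fold apart after Arg1 were Sptlc1, Iqsec2, Cdkn2a, Mmp8, Clec1b, Cd24a, Thbd, Cd5l, Clec7a, Olr1, Ms4a8a, Tjp1 and Sowaha. Cdkn2a, which encodes inhibitors of cell division, had levels of 1.85 and 0.08 in wild type without and with LPS, and of -0.36 and -1.38 in CD163-deficient cells, lower in both states (-1.45 with LPS). None of the other 4 cyclin-dependent kinase inhibitor genes at the level rule was 1.5-fold apart, with Cdkn2b, its neighbour in the genome, at 0.23 and Cdkn1a at 0.27. Sptlc1, a subunit of the first enzyme of sphingolipid synthesis, had 0.25, 0.77 and 0.59 on the other arrays and -0.76 in CD163-deficient cells with LPS (-1.53), while its partner Sptlc2 was at 0.09. Iqsec2 had 0.92, 0.70 and 0.87 on the other arrays and -0.81 in CD163-deficient cells with LPS (2.83-fold lower). For Sptlc1 and Iqsec2 the difference therefore rests on 1 array that stands apart from the other 3.

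Receptors for microbial and oxidized ligands were among the genes lower by 2-fold or near it. Clec7a, which encodes the beta-glucan receptor dectin-1, had 7.15 and 5.97 in wild type without and with LPS, and 6.97 and 4.88 in CD163-deficient cells (-1.09, and -0.18 without LPS). Olr1, the receptor LOX-1 for oxidized lipoprotein, had 0.20 and 2.18 in wild type without and with LPS and was lower in CD163-deficient cells in both states (-1.07 with LPS, -1.24 without it). Clec1b, which encodes CLEC-2, the podoplanin receptor of platelets and some myeloid cells, had 1.18 and 0.39 in wild type and 0.29 and -0.90 in CD163-deficient cells (-1.30, and -0.57 on its other probe). Mrc1, the mannose receptor, had 3.37 and -0.02 in wild type without and with LPS, and 3.01 and -0.89 in CD163-deficient cells (-0.86). Of 15 C-type lectin receptor genes 9 were lower and 6 higher (median -0.06), and these 4 were the only genes at 1.5-fold. Clec4e, which encodes the mycobacterial sensor Mincle, was at 7.25 and 7.37, and Mgl2 at 6.16 and 6.17.

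Among scavenger receptors, the family that CD163 belongs to by function, 9 of 14 genes were lower (median -0.21). Cd5l, a secreted protein with the same domain type as CD163, had 6.82 and 4.68 in wild type without and with LPS, and 5.85 and 3.57 in CD163-deficient cells, lower in both states (-1.11 with LPS, -0.97 without it). Scarf2 differed by -0.62, Scarb1, a receptor for high-density lipoprotein, by -0.44 and Cd36 by -0.32. On the other side Stab1 was at 0.47 and Msr1 at 0.24, and Marco had 8.53 and 8.65. Genes of alternative activation were lower in 12 of 16 cases (median -0.33), among them Arg1, Clec7a and Mrc1, the transcription factor gene Egr2 (1.25 in wild type against 0.55 in CD163-deficient cells with LPS, -0.70) and Folr2, a folate receptor (-0.62). Chil3 and Mgl2, other members, were at 0.05 and 0.01. Without LPS 14 of 17 were lower (median -0.29), beside 64.2% of all genes.

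Markers of large peritoneal macrophages were lower in 15 of 21 cases (median -0.19). Gata6, the transcription factor that defines this cell type, had -0.19 and -1.29 in wild type without and with LPS, and 0.12 and -1.96 in CD163-deficient cells, lower with LPS (-0.67) and higher without it (0.31). Thbd, which encodes thrombomodulin, had 0.27 in wild type against -0.87 in CD163-deficient cells with LPS (-1.13), Cd93 2.89 and 2.40 (-0.49), Cd9 3.76 and 3.23 (-0.53) and Timd4, a receptor for dying cells, 1.66 and 1.25 (-0.40). Other defining markers were level or higher, with Adgre1 at 0.14, Icam2 at 0.11, Cxcl13 at 0.14 and Prg4 at 3.99 on both LPS arrays. The summed linear level of the list with LPS was 968 in wild type, and that of CD163-deficient cells 933. The 10 markers of small peritoneal macrophages and monocytes at the level rule were divided, with Plac8 at -0.67 and Ly6c1 at 0.25.

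Coagulation and fibrinolysis genes were lower in 13 of 18 cases (median -0.41). F2r, the thrombin receptor, had 1.06 and -0.09 in wild type without and with LPS, and -0.01 and -1.02 in CD163-deficient cells (-0.92). F3, tissue factor, the trigger of clotting, had 0.72 and 0.02 with LPS (-0.70), and F7, its partner, 3.36 and 2.80 (-0.56). Plaur, the urokinase receptor, had 4.28 and 3.75 (-0.53). Procr, the protein C receptor, went the other way at 5.69 and 6.06 (0.37), and F10 was level (0.02). Of 18 platelet markers 8 met the level rule, 5 lower and 3 higher (median -0.30), and Pf4, Thbs1, Itgb3 and Clec1b among them stand in other lists too. Other defining platelet genes were far below the rule with LPS, with Itga2b at -4.67 in wild type against -4.60 in CD163-deficient cells and Gp9 at -4.37 and -4.51. Without the platelet markers the coagulation list kept a median of -0.41 (12 of 16 lower) and the large macrophage list a median of -0.19 (14 of 19 lower), a trimming chosen after the values were seen.

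Extracellular matrix genes were the pathway list furthest down, with 25 of 27 lower (median -0.48). Nid1, a basement membrane protein, had 0.38 in wild type against -0.51 in CD163-deficient cells with LPS (-0.88), and the collagen cross-linking genes Loxl2 and Lox differed by -0.80 and -0.77. Col1a1, the main fibrillar collagen, had 4.84 and 4.61 in wild type without and with LPS, and 4.15 and 3.92 in CD163-deficient cells, lower in both states (-0.70 with LPS, -0.68 without it). Has2, which makes hyaluronan, differed by -0.75 and Fn1, fibronectin, by -0.37. The 2 genes on the higher side were Postn and Col6a2 (0.35). Fbln2, a matrix protein, had 4.16 in wild type against 3.17 in CD163-deficient cells with LPS, just under 2-fold.

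Fibroblast markers moved with the matrix genes. Of 13 at the level rule 11 were lower (median -0.58), including the smooth muscle type cytoskeletal genes Tagln (4.82 in wild type against 4.02 in CD163-deficient cells with LPS, -0.80) and Acta2 (3.81 and 3.15, -0.66), Dcn (-0.58) and Thy1 (-0.56). The summed linear level of the list was 146 and 134 in wild type without and with LPS, and 116 and 85.8 in CD163-deficient cells. Lum was below the level rule on both LPS arrays, at -3.38 and -3.51, and Dpt was not well above background. With the fibroblast markers taken out, the matrix list had 19 of 19 genes lower (median -0.48), again a trimming chosen after the values were seen. Postn and Col6a2, the only matrix genes on the higher side, are themselves fibroblast markers, the 2 higher ones of the 13. With LPS, Postn had the largest difference of the fibroblast list in either direction (1.24). The trimming thus removed both exceptions, and the count of 19 adds no support. The part of fibroblasts in the matrix difference was not tested. Mesothelial markers, of the lining of the cavity, were too dim to compare as a list, with 1 of 17 at the rule (Wt1, -0.79 and -1.26) and Cdh1 not well above background. Their summed level was 1.34 in wild type with LPS and 1.1 in CD163-deficient cells.

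Proteases of the matrix leaned the same way. Mmp8, the neutrophil-type collagenase, had 3.08 and 1.92 in wild type without and with LPS, and 2.04 and 0.60 in CD163-deficient cells, lower in both states (-1.32 with LPS, -1.04 without it). Mmp13 had 4.60 and 3.78 with LPS (-0.82), Mmp9 2.89 and 2.12 (-0.77) and Mmp27 -0.12 and -1.06 (-0.94). Their inhibitors were lower too, Timp3 with 2.59 and 1.68 (-0.91) and Timp1 with 5.73 and 5.03 (-0.71). In the whole list of 24 metalloproteinases and inhibitors 16 were lower and 8 higher (median -0.10), and Mmp14, the membrane-bound activator, was at 3.34 and 3.49. Mmp8 and Mmp9 are also neutrophil markers, and the other markers of that list did not follow them. Csf3r was at -0.07, Elane at 0.00, Camp at 0.14, S100a8 at 4.05 and 4.25 (0.20) and Ngp not well above background, and the summed level with LPS was 235 in wild type, and that of CD163-deficient cells 266.

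Genes of cell division were lower by small amounts. Of 25 mitosis genes 24 were lower (median -0.33). Anln, a scaffold of the cleavage furrow, had 0.06 and -0.43 in wild type without and with LPS, and 0.00 and -1.33 in CD163-deficient cells (-0.90). Ccna2 differed by -0.57, Prc1 by -0.54, the survivin gene Birc5 by -0.53, Ccnb1 by -0.45 and Cdk1 by -0.44. Genes of DNA replication had 28 of 38 lower (median -0.12), with Uhrf1 at -0.51, the nucleotide enzyme gene Rrm2 at -0.48 and Ccnd1 at 1.11 and 0.76 (-0.34), while Ccne1 was at 0.30. The Uhrf1 difference shrank to -0.03 at the smallest over the processing alternatives. Without LPS 39 of 40 replication genes were lower (median -0.29) in a comparison where the median of all genes was -0.10.

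Genes of haem and iron handling, the pathway that CD163 feeds, lay on both sides, 14 of 24 higher (58.3%, beside 59.1% of all genes) with a median of 0.15. Hmox1, the haem oxygenase that breaks down haem, had 5.98 in wild type against 6.41 in CD163-deficient cells with LPS (0.43, and -0.12 without LPS). Spic, a transcription factor of iron-recycling macrophages that haem induces, had -0.93 and 1.51 in wild type and -0.73 and 2.19 in CD163-deficient cells (0.67), the only gene of the list at 1.5-fold. Blvrb, which reduces biliverdin, differed by 0.49, the iron oxidase ceruloplasmin gene Cp by 0.37, Lcn2, which binds bacterial iron carriers, by 0.31 and the iron transporter gene Slc11a1 by 0.28. The transferrin receptor gene Tfrc had 0.20 and -0.23 with LPS (-0.43), Lrp1, the receptor for haemopexin with haem, 2.94 and 2.64 (-0.30) and the haem exporter gene Flvcr1 0.44 and 0.23 (-0.20).

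Complement genes were divided, with 12 of 21 higher (57.1%, beside 59.1% of all genes, median 0.09). The early component genes C1qb (0.51) and C2 (0.46) and the central component C3 (7.43 in wild type against 7.78 in CD163-deficient cells with LPS, 0.35) were higher, and the proteases C1s1 (-0.43) and C1ra (-0.16) were lower. C1s1 has a near-identical neighbour, so its probe may read both. In uptake of dying cells 11 of 20 genes were lower (median -0.20), and the receptor gene Mertk, with 1.63 and 2.20 in wild type and 2.46 and 2.69 in CD163-deficient cells, was higher in both states (0.49 with LPS, 0.83 without it), while its bridging ligands Gas6 (-0.54) and Pros1 (-0.30) were lower with LPS. Mfge8, another bridging protein, had 6.85 and 7.33 (0.48).

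Serpins show how 1 family split. Serpina3g, Serpina3f and Serpinb9 (0.61), an inhibitor of granzyme B, were higher by 1.5-fold or more. The collagen chaperone gene Serpinh1 (-0.56), Serpinf1 (-0.56) and Serpinb1a, a neutrophil protease inhibitor (-1.19 in wild type against -1.74 in CD163-deficient cells with LPS, -0.56) were lower. Among cathepsins and cystatins, 8 of 17 were higher and 9 lower (median 0.00), with Cst7 at one end and Ctsk, a collagen-degrading cathepsin, at the other, at 1.07 and 0.21 (-0.86). In the paired receptor list of 28 genes, Cd300e (0.74) and Cd300lf (-0.84), members of 1 receptor family on the same chromosome, lay at opposite ends. In the adhesion list Cd24a, a small mucin-like surface protein, had -0.57 and 2.29 in wild type without and with LPS, and -0.90 and 1.02 in CD163-deficient cells (-1.27). F11r, a junction molecule, had 0.23 and -0.66 (-0.90), and Tjp1, the tight junction scaffold, -0.87 and -1.92 (-1.05).

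The difference between the genotypes without LPS was measured on the other pair of arrays. Across 12691 genes at the level rule on all 4 arrays the 2 differences had a Pearson correlation of 0.08 and a Spearman correlation of 0.03, over genes, which are not independent replicates. Counted at 1.5-fold or more without LPS, the larger lower values were shared to a greater extent than the higher ones. Of the 14 genes at least 2-fold lower with LPS, 13 met the level rule on all 4 arrays. Without LPS 11 of them were lower as well, beside 64.2% of all genes in that comparison, and 6 by 1.5-fold or more. Of the 9 at least 2-fold higher, 5 met it. Without LPS 4 of these were higher too, beside 35.8% of all genes, and 1, Postn, by 1.5-fold or more. At 1.5-fold, 70 of 165 lower genes were also 1.5-fold lower without LPS, beside 3.37% of all genes in that comparison, and their 165 had a median of -0.72 with LPS and -0.47 without it. For the higher genes it was 6 of 58, beside 2.52% of all genes, with medians of 0.69 and 0.16. By sign alone, 44 of those 58 were higher without LPS and 134 of the 165 lower genes were lower.

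**Figure D4:**
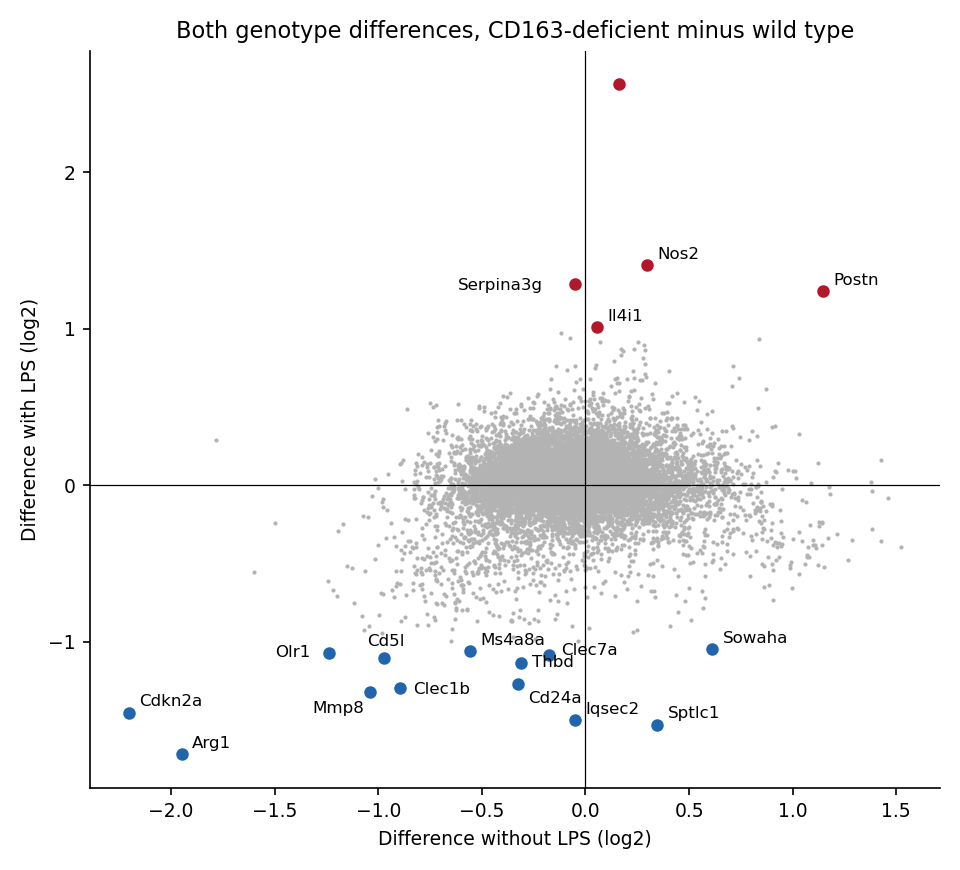
Difference between CD163-deficient and wild-type cells without LPS (horizontal axis) and with LPS (vertical axis), log2, for the 12691 genes at a level of -2 or more on all 4 arrays. Coloured points are the 5 genes at least 2-fold higher (red) and the 13 at least 2-fold lower (blue) with LPS. Arg1 and Cdkn2a lie far to the lower left, Postn to the upper right, and Nos2, Serpina3g and Il4i1 near the vertical line at 0.

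Genes near Cd163 on chromosome 6 were looked at after the values were seen, because Clec1b, Clec7a and Olr1 are neighbours there. Their probes begin at 129355286, 129411739 and 129435316 on mm9, about 5.1 Mb from that of Cd163, and Cd69 lies in the same cluster of lectin genes. Of 151 genes within 10 Mb of the Cd163 probe, 1 was 1.5-fold higher and 6 were 1.5-fold lower, 4.64% together, against 2.01% of 13053 other placed genes and 1.6% of 499 genes on the rest of chromosome 6. The standard deviation of the difference was 0.30 against 0.21. In the 10 Mb bin that holds the Cd163 probe, 7 of 98 genes (7.14%) were 1.5-fold apart. Of 105 bins of at least 50 genes, 2 were above that share, and the median bin had 1.71%. Clec1b, Clec7a and Olr1, which led to the region, are counted in these shares, so the shares are no independent support. The nearest named genes 1.5-fold apart were Pianp, 0.68 Mb away, with -1.06 in wild type against -1.98 in CD163-deficient cells with LPS (-0.93), and Mfap5 at -1.79 Mb, a fibroblast marker (-0.71). Among other genes close to the lectin genes Clec1b, Clec7a and Olr1, Cd69 was past 1.5-fold on the higher side (0.92). The rest were under 1.5-fold. Clec2d was at 0.32, Gabarapl1 at -0.07 and a probe without a gene name at -0.12. Without LPS the share near Cd163 was 8.57%, against 5.76% of the other genes.

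**Figure D5:**
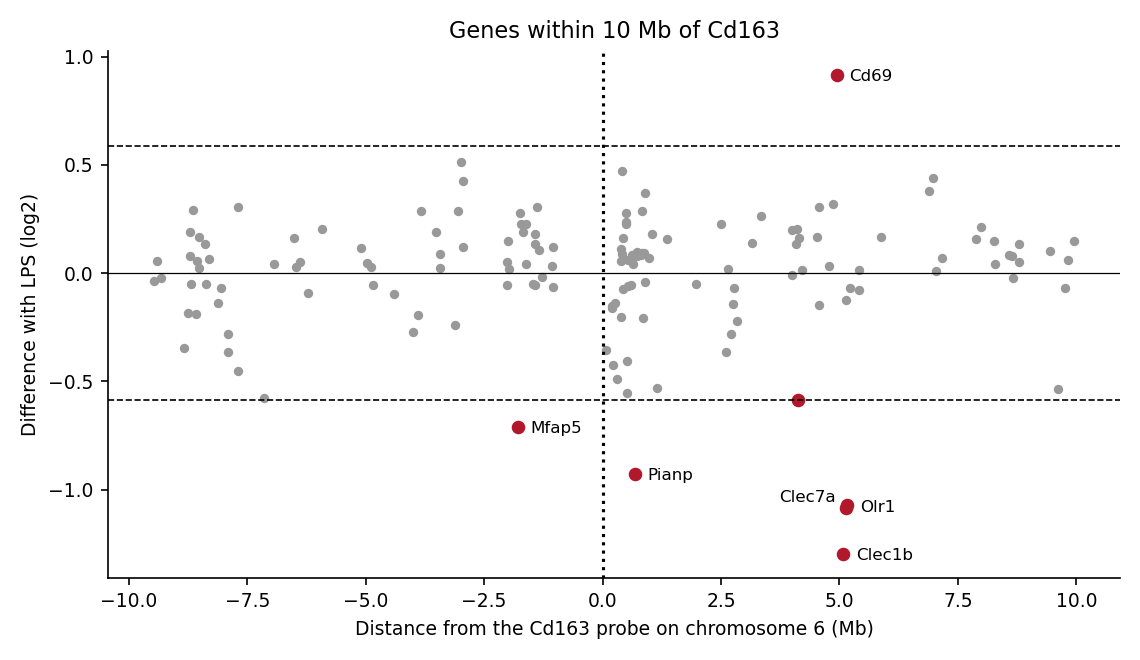
Difference between CD163-deficient and wild-type cells with LPS (log2, vertical axis) against distance from the Cd163 probe in Mb (horizontal axis) for 151 genes of chromosome 6 at the level rule. Dashed lines mark 1.5-fold, and the 7 genes past them are red. Clec1b, Clec7a and Olr1 lie together below the lower line with Cd69 above the upper one, and most genes nearer to Cd163 lie inside the lines.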

How the data were processed

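Total RNA was labelled with Cy3 and hybridised to 1 one-colour Agilent array per group. Per the file headers, the software was Agilent Feature Extraction 10.7.1.1, but version 9.5.1.1 stands in the submitters' processing notes. Each deposited processed signal is an intensity with background and spatial trend removed within the array. The deposited value table holds an intensity on a linear scale, each column with a median of 175.3, close to a quantile normalization of the processed signals. Control spots were left out, spots of a probe were averaged as log2, and the array's 75th percentile over probes was subtracted (847, 1258, 1190 and 1128 for wild type without and with LPS and CD163-deficient without and with LPS). In that order 24704, 26535, 25695 and 24950 genes were well above background by at least 50% of their spots, and no spot was saturated. Of 39429 probes, 26761 were named by RefSeq accession, 3814 by symbol and 639 by synonym, and 8215 kept the file's name. Probe positions come from the array's annotation, on mm9.

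With 0 residual degrees of freedom no p-value, interval or paired analysis is given, and the number of arrays limits the precision. The genes, the 64 lists (46 of pathways, 16 of cell types, 2 of controls) and the rules were chosen with earlier results of these data known. Named genes are Cd163, the 30 largest differences in each direction, up to 8 members of each list (all of short lists) and those beside the level threshold. Among the 30 largest, clone and predicted names and genes whose probes differed in sign were passed over. Members of the lists were not screened this way, and Gch1 and Cflar among them had a probe of the other sign. Lum, Dpt, Itga2b, Gp9, F13a1, Ciita, Gbp2b, Ncr1 and Klrc2 and the other markers below the level rule, and lesser members of longer lists, were named after their values were seen. Alternatives were normexp background correction (limma 3.58.1, R 4.3.3, offset 50), quantile normalization, scaling to detected probes, the deposited table, other probe choices, other level filters and leaving out flagged spots. Counting was tested on simulated data. Scripts ran under Python 3.11.15, with tables in pandas 2.3.3, arrays in numpy 2.4.6, statistics in scipy 1.17.1 and plots in matplotlib 3.10.9.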

Additional observations from a re-analysis of the deposited data

Results flagged for a closer look

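Sowaha, which encodes an ankyrin repeat protein, was at least 1.5-fold apart in opposite directions with and without LPS, the 1 such case among the named genes with a level of -2 or more on all 4 arrays. In wild type its level was -1.83 without LPS and -0.88 with it, and the CD163-deficient arrays had -1.22 and -1.93. The genotype difference was -1.05 with LPS and 0.61 without it. With a mean over its probes in place of the brightest one, the difference with LPS was -0.26, under 1.5-fold. With LPS its level was higher in wild type and lower in CD163-deficient cells than without LPS, and its lowest value lay close to the level of -2 below which genes were not compared. The difference between the LPS states was not tested, since each group has 1 array.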

How the results depend on the processing

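The counts of genes at least 2-fold apart depended most on the level rule. With a level of -1 the higher count was 4, with -3 it was 17, and with no level rule, every gene well above background on both arrays taken in, 206 genes were higher and 157 lower, in place of 9 and 14. The share of higher genes among those 2-fold apart was 39.1%, and became 26.7% at -1, 44.7% at -3, 47.8% with a mean over the probes of each gene and 56.7% with no level rule. In the other settings, with other background correction, normalization, scaling, probe or spots, 8 to 11 genes were higher and 12 to 16 lower. All 21 named genes at least 2-fold apart kept their sign, and 18 of them stayed 2-fold apart in every setting that was run for single genes. The exceptions were Il4i1 (0.90 at the lowest), Tjp1 (-0.87) and Sowaha (-0.26). Of list medians over 0.1 in size, 2 changed sign, the adipocyte markers with a level of -3 (0.0236 in place of -0.13) and the mesothelial markers with no level rule (0.0419 in place of -0.47), lists with 2 and 1 genes at the main rule. The medians of cytokine, costimulatory, cathepsin, adhesion, paired receptor, cholesterol, LXR and neutrophil genes, among others, changed sign in at least 1 setting. Such medians carry no direction. Medians over the settings ran from 0.43 to 0.51 for guanylate-binding proteins, from 0.50 to 0.60 for immunity-related GTPases, from -0.51 to -0.42 for extracellular matrix, from -0.52 to -0.18 for coagulation, from -0.62 to -0.04 for platelet markers and from 0.01 to 0.19 for haem and iron. No paired analysis was possible because each group has 1 array. Signal over background limits the dim genes, and the single array limits every difference.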

Other observations

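Lists of metabolic genes had medians close to 0 between CD163-deficient and wild-type cells with LPS. Of 41 respiratory chain subunit genes 37 were higher (median 0.12, largest Ndufs8 at 0.41), whereas without LPS 36 of 41 were lower (median -0.28). Control lists turned likewise. Of 15 housekeeping genes 11 were higher with LPS (median 0.11) and 12 lower without it (median -0.11). Of 33 glycolysis genes 23 were higher (69.7%, beside 59.1% of all genes), with a median of 0.08. The glucose transporter gene Slc2a6 was at 0.56 and Hk3 at 0.48. Acod1, which makes itaconate, had 6.97 in wild type with LPS and 7.32 in CD163-deficient cells (0.35). Of 33 antioxidant genes of the NRF2 pathway 29 were higher (median 0.13), with Me1 at 0.53 and G6pdx at 0.36. Cholesterol synthesis genes were divided, 9 higher and 10 lower (median -0.01), and so were LXR target and fatty acid genes, 10 and 10 (median 0.00), with the desaturase gene Scd2 at 1.84 and 0.98 (-0.86). In prostaglandin synthesis Ptgs1, the constitutive cyclooxygenase, had 3.09 and 1.46 in wild type without and with LPS, and 2.11 and 0.52 in CD163-deficient cells, lower in both states (-0.95 with LPS, -0.98 without it), while Ptgs2, the inducible form, had 2.83 and 3.21 (0.38). The sphingolipid list had 19 of 29 lower (median -0.11), with the lipid receptor gene S1pr1 (-0.86) and Sphk1 (-0.56) after Sptlc1. Ribosomal protein genes, a control list, had a median of 0.03 (32 of 44 higher), and with quantile normalization or the deposited value table the median turned to -0.07. Without LPS all 44 were lower (median -0.37).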
